A study of Danio rerio with 6 samples.

Results

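The vacuolar ATPase (V-ATPase) is the proton pump that acidifies lysosomes, endosomes, melanosomes and synaptic vesicles. The transcripts described here are every gene of the table whose name starts with atp6v or atp6ap. There were 21 such genes among 14781: 8 for the membrane sector V0, 10 for the cytosolic sector V1 and 3 for accessory proteins. They were chosen by name, with no measured value in the rule, though earlier results of these data were known. All 21 passed the filter on low values (at least 10 normalized counts in at least 3 of 6 libraries), as did 11959 genes in all.

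Each library held RNA from both eyes of a single zebrafish larva, taken 5 days after fertilization. The 3 wild type (WT) and 3 samd7-/- larvae were offspring of heterozygous carriers of the samd7stl888 allele, so every larva had heterozygous parents. The mutants carried samd7stl888 on both chromosomes, and the study asks how samd7, a photoreceptor gene of the Polycomb group, keeps photoreceptor identities apart. Whole eyes hold retina, pigment epithelium, lens and surface tissue, so fewer cells of a type and less RNA per cell cannot be told apart.

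In the V-ATPase, V1 splits ATP and turns a central stalk, and the stalk spins a ring of proteolipid subunits in V0 that carries protons across the membrane. These roles are known mainly from yeast and mammals. In zebrafish, mutants of several V-ATPase genes have small, pale eyes with defects of photoreceptors and pigment epithelium, and a class of skin ionocytes uses the pump to secrete acid.

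Values are normalized read counts, that is, read counts divided by 1 size factor per library, and fold changes compare samd7-/- with WT after a log2(value + 1) transform, each with its standard error (SE) from a limma fit of all 11959 genes. The libraries held 23185755 to 26672265 reads assigned to genes. Counts grow with transcript length and no transcript lengths were used, so levels are compared between genotypes and not between genes. The mutated gene samd7 had 1813, 1587 and 1931 counts in the WT larvae and 4691, 4070 and 4479 in the mutants (log2 1.31, SE 0.12, limma adjusted p = 0.00491). The lesion is not described in the labels, so this rise says nothing for or against the genotypes.

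Across the pump, 1 transcript differed most between the genotypes, and the other 20 passed in none of limma, edgeR and DESeq2. Log2 fold changes of these 20 ran from −0.35 to 0.32. No V-ATPase gene passed limma at an adjusted p of 0.05, where 36 genes or 0.301% of those tested did. At an unadjusted p of 0.05 there was 1 member, atp6v0b, where 6.33% of all tested genes were below that value. edgeR called 0 members (0.284% of its genes) and DESeq2 called 1, again atp6v0b (0.708% of its genes). The authors' deposited table also has 1 member under 0.05, atp6v0b, where 0.679% of its genes are. The median log2 fold change of the 21 members was −0.04, with 7 above and 14 below 0, and that of all tested genes was 0.00. These signs depend on the scaling. The median of the members was 0.00 with quantile normalization, and 0.08 with scaling by total reads, where that of all tested genes was 0.11. The median size of the difference, without its sign, was 0.06 for the members and 0.17 for all tested genes, which were not matched for level.

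**Figure D1:**
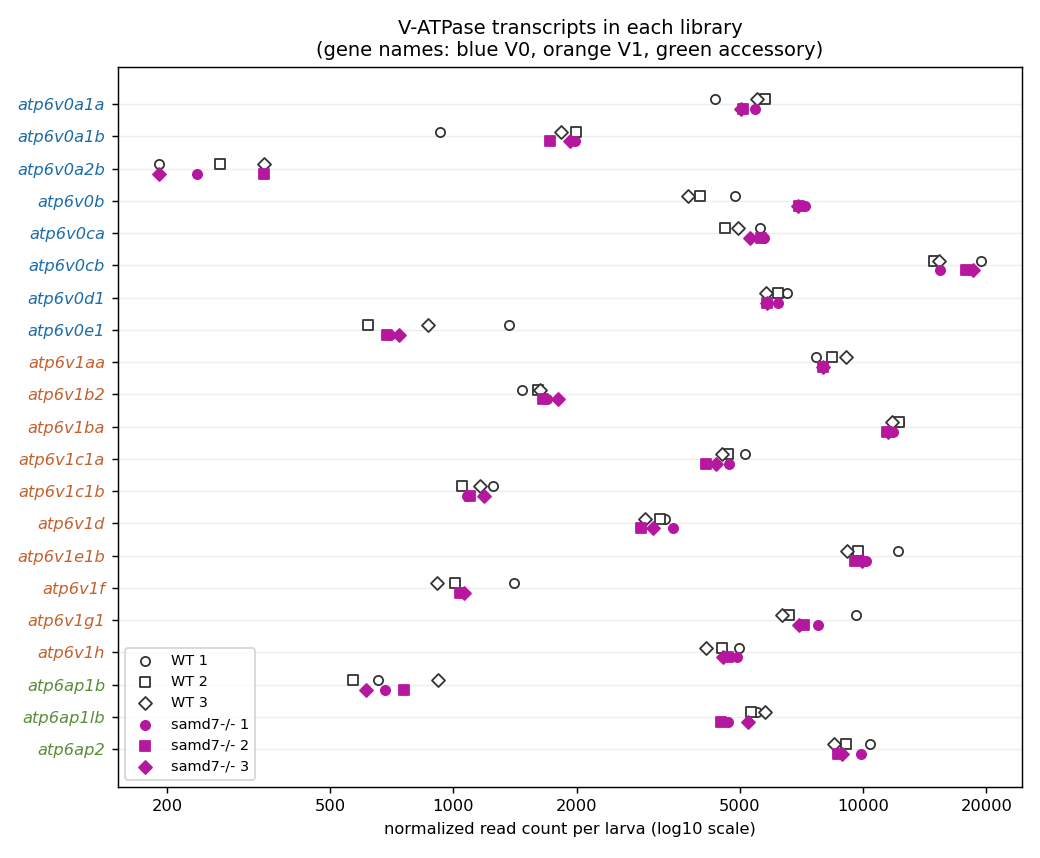
Normalized read count of each V-ATPase gene in each larva, on a log10 scale, with open symbols for WT, filled symbols for samd7-/- and the symbol shape for the replicate number. For atp6v0b the 3 filled symbols lie between 6945 and 7218, right of all open symbols; for most other genes the genotypes overlap and WT 1 (open circle) is often at one end.

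The proteolipid gene atp6v0b was the member that differed most. It encodes subunit c'', a member of the proton-carrying ring of V0. The 3 WT larvae had 4866, 4006 and 3738 counts, and the 3 mutants 7218, 6962 and 6945. All mutant larvae were above all WT larvae, and the mutants lay closer together (SD 153) than the WT larvae (SD 589). The ratio of the means was 1.68, a log2 fold change of 0.75 (SE 0.12, 95% interval 0.47 to 1.03). This difference was not called by limma (unadjusted p = 0.000236, adjusted p = 0.0673) or edgeR (adjusted p = 0.135), and was called by DESeq2 (adjusted p = 0.000149). The authors' deposited table gives it a log2 fold change of 0.74 and an adjusted p of 0.000152.

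Whether limma called atp6v0b depended on WT 1, the highest of the WT larvae, and on the scaling. Without WT 1 its log2 fold change was 0.86 and its limma adjusted p was 0.0374. With any other library left out the adjusted p lay above 0.05, up to 0.315, with log2 fold changes of 0.67 to 0.76. With all larvae it passed limma after quantile normalization (adjusted p = 0.0268) and after scaling by total reads (adjusted p = 0.0282). With the replicate number as a block its adjusted p was 0.119. Of the V0 counts, atp6v0b took 11.3, 10.5 and 9.74% in WT and 16.8, 15.8 and 15.6% in samd7-/-. The genotypes did not overlap in this share (exact permutation p = 0.1, two-sided, n = 3 per genotype, the smallest that 3 against 3 can give). This share was not among the planned quantities, and its p-value was not adjusted. It reuses the counts of atp6v0b given above, so it is no separate support for their difference.

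In GRCz12tu, the assembly of the RefSeq gene table and a later build than that of the counts, atp6v0b lies on chromosome 2, the chromosome of samd7, with 31 tested genes between them. The V1 gene atp6v1h also lies there, with a further 42 tested genes between it and atp6v0b. The other 19 members lie on other chromosomes. Mutant and WT siblings of an intercross tend to differ by descent in the stretch around the selected locus, so an effect of the samd7 lesion on atp6v0b and a difference between linked atp6v0b alleles cannot be told apart here.

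The neighbours of atp6v0b in gene order were looked at after the values of atp6v0b had been seen. Among the 10 nearest tested genes on each side, 9 of 20 showed no overlap between WT and mutants, against 13.1% of the genes tested. Of these 9, 5 were higher in samd7-/- (6.66% of the genes tested are) and 4 lower (6.39%). At an unadjusted p of 0.05 there were 8 of 20, against 6.33% of all tested genes, and 0 passed limma while 1 passed DESeq2. The gene next to it on one side, b4galt2, a galactosyltransferase gene, had a log2 fold change of 0.72 (SE 0.25), and kif2c, a kinesin gene on the other side, one of −0.40 (SE 0.19). In GRCz12tu atp6v0b overlaps no other gene. Around samd7 itself, 8 of the 20 nearest tested genes showed no overlap between WT and mutants, against 13.1% of the genes tested. There 7 of 20 were at an unadjusted p of 0.05, against 6.33%, and 0 passed limma while 1 passed DESeq2.

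For atp6v1h, 4 of 20 neighbours showed no overlap, against 13.1% of all tested genes, and 2 of 20 were at an unadjusted p of 0.05, against 6.33%. atp6v1h encodes subunit H, which controls whether V1 is active. It stood at 4972, 4520 and 4134 in WT and 4928, 4681 and 4540 in samd7-/-, within overlapping ranges (log2 0.06, 95% interval −0.19 to 0.31, limma adjusted p = 0.938). Over the whole chromosome, 127 of 522 tested genes (24.3%) showed no overlap, against 13.1% of all tested genes. On it 10 of 522 passed limma, against 36 of 11959 (0.301%) of all tested genes.

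**Figure D2:**
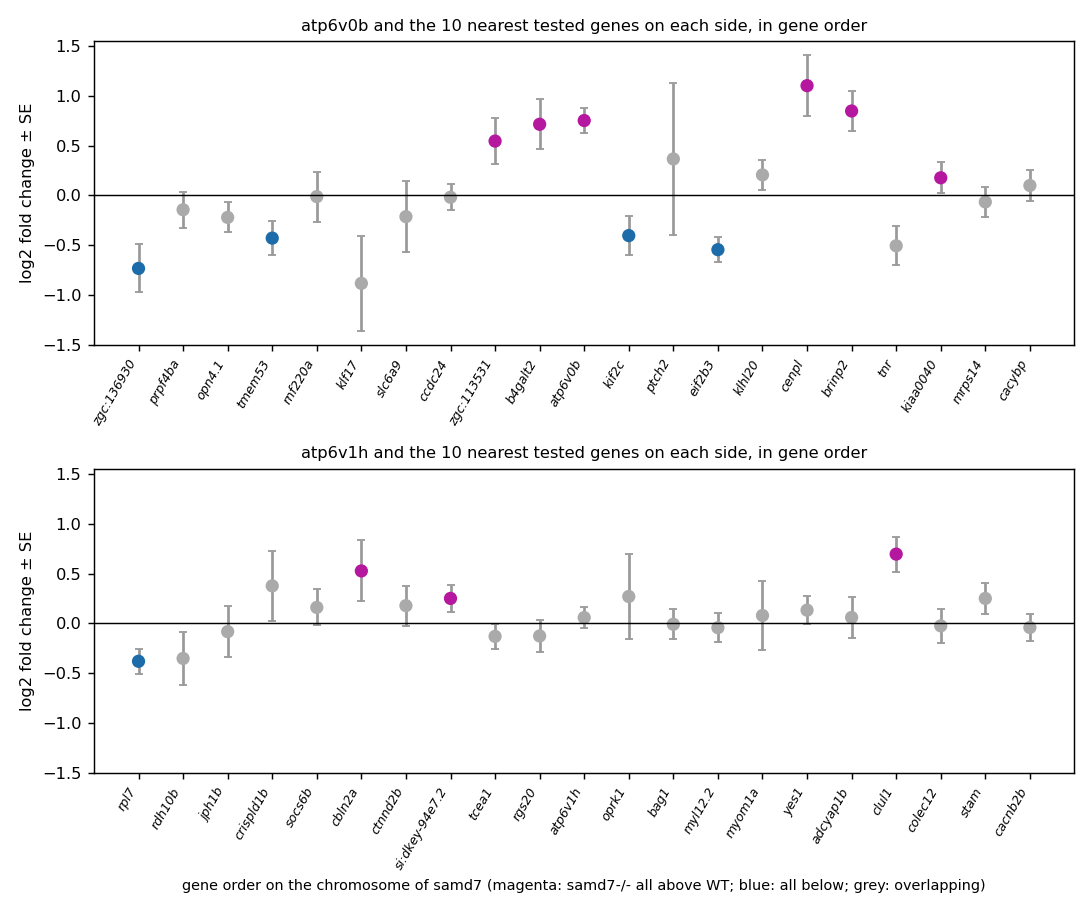
Log2 fold change with SE (y axis) of atp6v0b, top, and atp6v1h, bottom, each with the 10 nearest tested genes on either side in gene order (x axis, order only). Magenta marks genes with all samd7-/- larvae above WT, blue those with all below and grey those that overlap. Around atp6v0b 9 of the 20 neighbours are coloured, and around atp6v1h 4 of 20.

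The other subunits of V0 did not pass in either direction. The ring proteolipid subunit c has a pair of genes here. atp6v0ca stood at 5596, 4605 and 4945 in WT and 5717, 5625 and 5283 in samd7-/- (log2 0.14, 95% interval −0.12 to 0.39). atp6v0cb stood at 19433, 14857 and 15306 in WT and 15435, 17814 and 18564 in samd7-/- (log2 0.07, interval −0.26 to 0.39). The genotypes overlapped for both, and both intervals end below 0.47, the lower bound for the related ring subunit c''. The fold changes of these genes were not tested against each other, and atp6v0b was singled out as the member that differed most. atp6v0ca took 22.4 to 24.4% of the pair's counts in WT and 22.2 to 27.0% in the mutants (difference 0.91 percentage points, exact permutation p = 0.7, adjusted p = 0.7 over 7 shares).

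Subunit a forms the path for protons beside the ring, and in mammals its a1 form is that of synaptic vesicles. atp6v0a1a stood at 4343, 5751 and 5522 in WT and 5444, 5089 and 5032 in samd7-/- (log2 0.01, 95% interval −0.29 to 0.30). atp6v0a1b stood at 930, 1989 and 1832 in WT and 1984, 1725 and 1929 in samd7-/- (log2 0.32, interval −0.28 to 0.92). The low value of WT 1 sets that difference: without WT 1 the log2 fold change was −0.03. atp6v0a2b, whose mammalian relative a2 works in the Golgi and endosomes, ranged from 191 to 346 in WT and from 192 to 346 in samd7-/- (log2 −0.06, interval −0.71 to 0.59).

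Within subunit a, atp6v0a1a took 79.5, 71.8 and 71.7% of the counts in WT and 71.0, 71.1 and 70.3% in samd7-/-. The genotypes did not overlap (difference −3.51 percentage points, exact permutation p = 0.1, the smallest possible, adjusted p = 0.35 over 7 shares). The gap rested on WT 1 and was −0.94 points without it. Next, the share of atp6v0a1b was 21.9 ± 4.24% in WT and 25.6 ± 1.45% in the mutants (SD, n = 3 each, exact permutation p = 0.2). It differed by 3.76 points with all larvae and by 1.33 points without WT 1. The share of atp6v0a2b was 3.78 ± 0.618% and 3.53 ± 1.14% (exact permutation p = 0.7, n = 3 each).

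The single genes of the remaining V0 subunits overlapped between genotypes. atp6v0d1 encodes subunit d, which joins the ring to the stalk of V1, and ranged from 5808 to 6511 in WT and from 5820 to 6211 in samd7-/- (log2 −0.05, 95% interval −0.28 to 0.18). atp6v0e1 encodes the small membrane subunit e. It stood at 1365, 620 and 869 in WT and 702, 689 and 738 in samd7-/-, with the mutants close together inside the WT range (log2 −0.35, interval −0.93 to 0.24). Its value without WT 1 was −0.05.

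**Figure D3:**
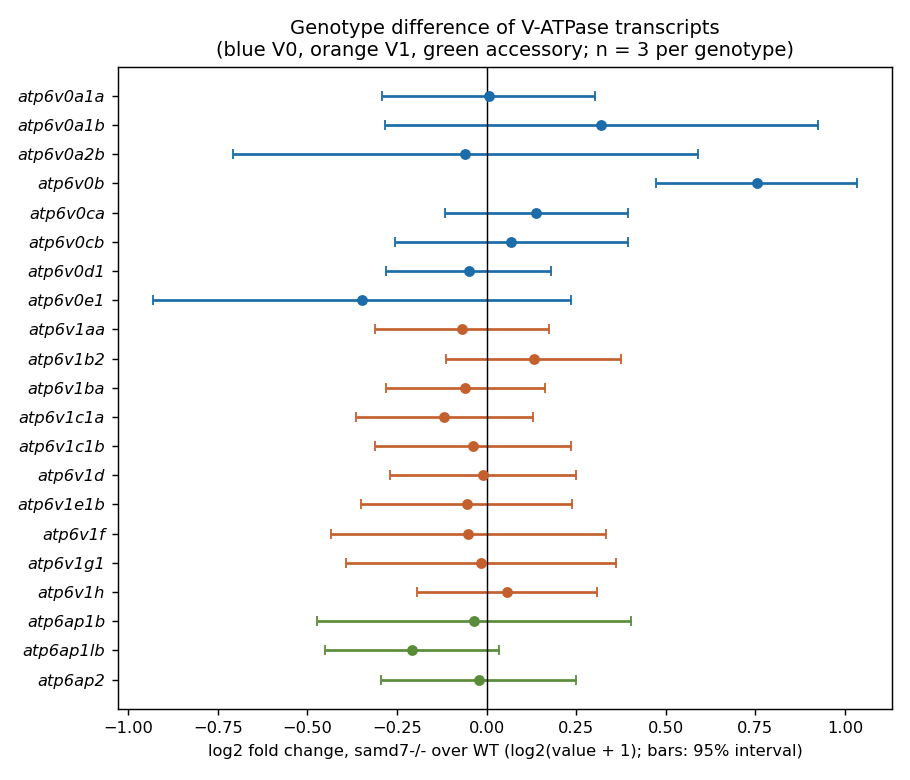
Log2 fold change of each V-ATPase gene, samd7-/- over WT (x axis), with its 95% interval as a bar, by gene (y axis). The interval of atp6v0b, 0.47 to 1.03, is the one that does not cross 0; intervals of the other 20 genes cross it and lie within a 2-fold change.

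None of the catalytic and stalk genes of V1 passed. atp6v1aa encodes subunit A, which splits ATP. It stood at 7678, 8394 and 9103 in WT and 7972, 7987 and 7989 in samd7-/-, where the mutants differed from each other by less than any WT pair (log2 −0.07, 95% interval −0.31 to 0.17). atp6v1d, of the central stalk, ranged from 2934 to 3286 in WT and from 2864 to 3445 in samd7-/- (log2 −0.01). atp6v1f, its partner in the stalk, stood at 1405, 1007 and 913 in WT and 1053, 1036 and 1064 in samd7-/- (log2 −0.05, interval −0.43 to 0.33). Both genotypes overlapped for each of these genes.

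The stator subunits, which hold V1 still against the rotor, overlapped too. atp6v1e1b ranged from 9152 to 12133 in WT and from 9543 to 10154 in samd7-/- (log2 −0.06, 95% interval −0.35 to 0.24). atp6v1g1 stood at 9590, 6610 and 6342 in WT and 7774, 7167 and 6992 in samd7-/- (log2 −0.02, interval −0.39 to 0.36). WT 1 was the highest larva for both, and without it their log2 fold changes were 0.06 and 0.17, still not passing. Subunit C has a pair of genes, atp6v1c1a (4530 to 5155 in WT, 4141 to 4719 in samd7-/-, log2 −0.12) and atp6v1c1b (1047 to 1252 and 1081 to 1187, log2 −0.04). atp6v1c1a took 80.6 ± 1.07% of the pair in WT and 79.7 ± 1.47% in the mutants (exact permutation p = 0.4, n = 3 each, adjusted p = 0.7).

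Subunit B binds nucleotides beside A, and neither of its genes passed. atp6v1b2 stood at 1468, 1605 and 1626 in WT and 1689, 1655 and 1800 in samd7-/-, with no overlap but a small difference (log2 0.13, 95% interval −0.11 to 0.38, limma adjusted p = 0.853). atp6v1ba stood at 12219, 12247 and 11790 in WT and 11833, 11457 and 11498 in samd7-/-, where 1 mutant was above the lowest WT larva (log2 −0.06, interval −0.28 to 0.16). The share of atp6v1b2 in the pair was 10.7, 11.6 and 12.1% in WT and 12.5, 12.6 and 13.5% in samd7-/-. The mutants were all above WT by 1.41 percentage points on average (exact permutation p = 0.1, n = 3 each, the smallest possible, adjusted p = 0.35 over 7 shares). In GRCz12tu 7 members overlap another RefSeq gene. For atp6v1b2, atp6v1c1a and atp6v1f that gene has a row here, and for atp6ap2, atp6v0a1b, atp6v0e1 and atp6v1e1b it has none. The library kit does not keep the strand, so some reads of these 7 may be assigned with error.

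Of the accessory genes, atp6ap1lb was lower in all mutants. It is named in RefSeq as like atp6ap1, whose product in mammals helps the pump assemble. WT larvae had 5523, 5332 and 5771 counts and mutants 4672, 4508 and 5247, where the highest mutant was just under the lowest WT larva (log2 −0.21, 95% interval −0.45 to 0.04, limma adjusted p = 0.791). atp6ap1b ranged from 569 to 916 in WT and from 611 to 757 in samd7-/- (log2 −0.04). Of the counts of both genes, atp6ap1b took 11.3 ± 2.12% in WT and 12.5 ± 1.98% in the mutants (exact permutation p = 0.6, n = 3 each). atp6ap2, the prorenin receptor gene, which is also an assembly partner of the pump, ranged from 8483 to 10394 and from 8694 to 9871 (log2 −0.02, interval −0.29 to 0.25).

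In all, genotypes did not overlap for 3 of 21 members (14.3%): atp6v0b and atp6v1b2 higher, atp6ap1lb lower. This share is near the 13.1% found among all tested genes. Of the 20 members other than atp6v0b, 20 had a 95% interval within a 2-fold change and 17 one within a 1.5-fold change, the wider ones being those of atp6v0a1b, atp6v0a2b and atp6v0e1. Their limma adjusted p-values ran from 0.791 to 0.992. Between larvae of a genotype the members had a median SD of 0.13 on the log2 scale, against 0.24 for all tested genes. Those were not matched for level, and members ran from 0.03 for atp6v1ba to 0.43 for atp6v0a1b.

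Summed by sector, V1 had 59160, 53043 and 51685 counts in the WT larvae and 54648, 51628 and 52436 in the mutants (exact permutation p = 0.6, n = 3 each, adjusted p = 0.6 over 4 quantities). V0 had 43236, 38290 and 38366 in the WT larvae and 42948, 44083 and 44504 in the mutants (exact permutation p = 0.2, adjusted p = 0.4). The genotypes overlapped in both sums, V0 through WT 1 alone. Accessory genes summed to 15575 ± 867 in WT and 14649 ± 641 in the mutants (SD, n = 3 each, exact permutation p = 0.3). All members together made up 0.439 ± 0.0287% of normalized counts in WT against 0.482 ± 0.0138% in the mutants (exact permutation p = 0.2, n = 3 each). This share divides by the total of each larva. Scaling by total reads gave all tested genes a median log2 fold change of 0.11. Relative to this shift, the log2 ratio with that scaling was 0.15 for the V0 sum, −0.03 for V1 and −0.08 for the accessory genes. Whether the higher share is particular to the members was not tested.

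The ratio of V1 to V0 counts was lower in every mutant. It was 1.37, 1.39 and 1.35 in WT and 1.27, 1.17 and 1.18 in samd7-/- (exact permutation p = 0.1, n = 3 each, the smallest possible, adjusted p = 0.4 over 4 quantities). With atp6v0b left out of V0, a choice made after its values were seen, the ratio was 1.54, 1.55 and 1.49 in WT and 1.53, 1.39 and 1.40 in samd7-/-, and the genotypes overlapped (exact permutation p = 0.2). Its difference on the log2 scale was −0.18 with atp6v0b and −0.09 without it. These ratios are of read counts and not of molecules, since transcript lengths differ between subunits.

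**Figure D4:**
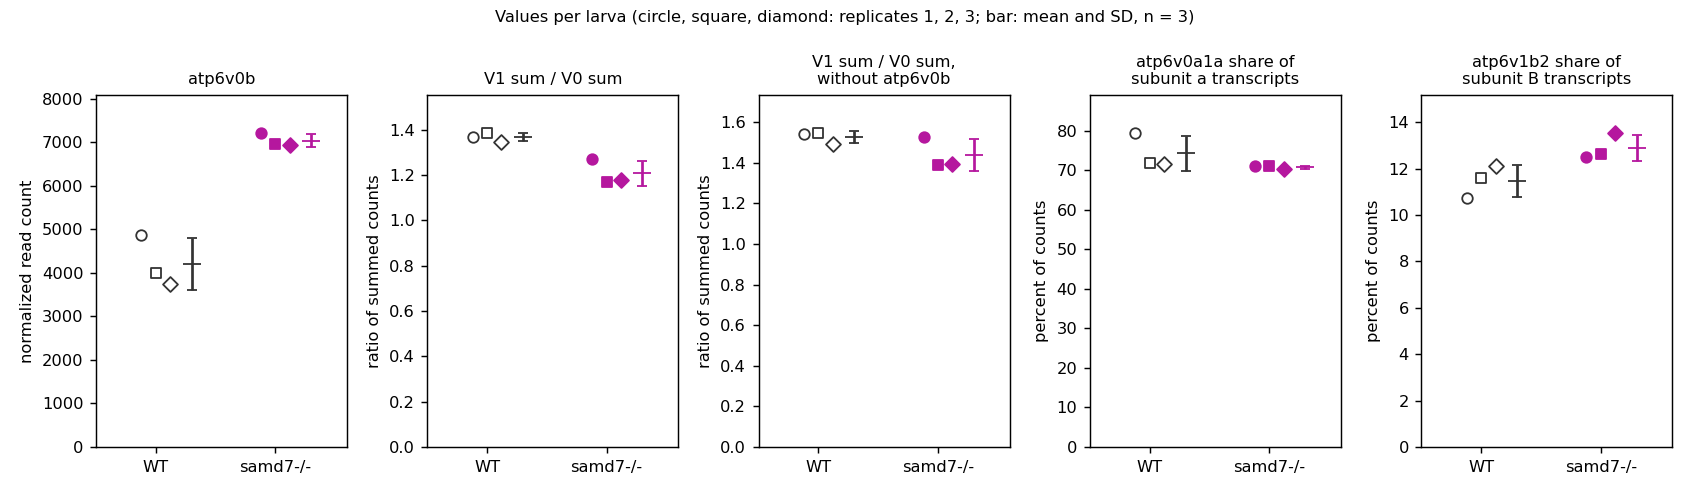
Values per larva with mean and SD (n = 3 per genotype) for atp6v0b counts, the ratio of summed V1 to V0 counts with and without atp6v0b, and the shares of atp6v0a1a among subunit a counts and of atp6v1b2 among subunit B counts, y axes starting at 0. The genotypes are apart in every panel but the middle one, and the share of atp6v0a1a is set apart mainly by WT 1, at 79.5%.

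WT 1 stood apart from the other WT larvae across the pump. It was the highest of the 3 WT larvae for 13 members and the lowest for 5. Its median distance from the mean of the other WT larvae was 0.23 on the log2 scale over the members, against 0.09 for WT 2 and 0.15 for WT 3. Over all tested genes these distances were 0.32, 0.23 and 0.25. The coefficient of variation was larger in WT than in samd7-/- for 18 of 21 members, with medians of 10.5 and 4.43%. In the same larva the 5 muscle markers summed to 63549, against 22592 and 32950 in the other WT larvae and 16002 to 42202 in samd7-/-. The 7 lens markers summed to 686866 in WT 1 and to 1100260 and 882318 in the other WT larvae, against 566531, 753441 and 514265 in the mutants. All 7 lens markers had negative log2 fold changes, with a median of −0.52, and 2 of 7 showed no overlap between the genotypes, against 13.1% of all tested genes. The most abundant by count, the crystallin gene cryba1b, had one of −0.52 (95% interval −1.20 to 0.16). Of 7 lens, 5 muscle, 5 microglia and 4 blood markers tested, 0 passed limma, edgeR or DESeq2, and 3, 0, 0 and 0 were at an unadjusted p of 0.05, against 6.33% of all tested genes. The log2 fold changes of the most abundant muscle, microglia and blood markers were −0.47 for mylpfa, −0.18 for apoeb and 0.16 for hbbe1.1, all with overlapping genotypes. The WT mean of apoeb was 42662 counts, and that of every other tested microglia marker was at most 172. Whether the counts of apoeb came from microglia was not tested. Of 8 photoreceptor markers 1 rose (arr3b) and 2 fell (arr3a and rho) with limma, which called 0.301% of all tested genes. With opn1sw1 (log2 0.68, all mutants above WT, limma adjusted p = 0.747), 4 of 8 were at an unadjusted p of 0.05, against 6.33%. For opn1lw2 all mutants were below WT (log2 −0.32, limma adjusted p = 0.826). All 8 were measured in these eyes. The part of these tissues in the member values was not tested.

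Summed markers of cells rich in V-ATPase overlapped between the genotypes. The 10 ionocyte markers summed to between 4680 and 7430 in WT and between 5677 and 8706 in samd7-/-, mostly from ca2 and rhcga. Whether the counts of ca2 and rhcga came from ionocytes or from other cells of the eye was not tested. Of 9 ionocyte markers tested, 0 rose and 0 fell with limma, edgeR or DESeq2. With limma 1 was at an unadjusted p of 0.05, against 6.33% of all tested genes. The most abundant by count, ca2, a carbonic anhydrase gene, had a log2 fold change of 0.21 (95% interval −0.30 to 0.72). The gene at an unadjusted p of 0.05 was foxi3b, an ionocyte transcription factor gene, at 41.1, 24.4 and 45.0 in the WT larvae and 9.83, 11.1 and 22.5 in the mutants. All mutants were below WT for it (log2 −1.33, 95% interval −2.39 to −0.28, limma adjusted p = 0.664), where 13.1% of all tested genes showed no overlap in either direction. The defining ionocyte genes foxi3a, foxi3b, ca15a and gcm2 did not exceed 56.9 counts in any larva, and slc9a3.2 did not exceed 4.78. The 10 pigment cell markers found summed to between 83825 and 202374 in WT and between 61300 and 217669 in samd7-/-, with all 10 fold changes negative, a median of −0.29 and 0 genes passing (limma; 0 at an unadjusted p of 0.05, 0 with edgeR, 0 with DESeq2). rlbp1b, a retinoid-binding protein gene of the pigment epithelium, ranged from 22447 to 68643 in WT and from 18089 to 81390 in samd7-/- (log2 −0.29). The part of these cells in the member values was not tested.

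Few genes that work with the pump passed in any test. Of 6 assembly factors tested, a list that shares atp6ap1b and atp6ap2 with the members, 0 rose and 0 fell (limma; 0 at an unadjusted p of 0.05, 0 with edgeR, 0 with DESeq2), with a median log2 fold change of −0.03. Among them vma21, listed as si:ch73-26o5.1, had a log2 fold change of −0.18 (95% interval −0.53 to 0.17). Of 5 genes of the RAVE complex and TLDc family, which join and part V1 and V0, 0 rose and 0 fell (limma; 0 at an unadjusted p of 0.05, 0 with edgeR, 0 with DESeq2; median −0.06). rogdi, a RAVE component, stood at 2760 ± 348 in WT and 2635 ± 50.2 in samd7-/- (SD, n = 3 each). dmxl2, which encodes rabconnectin-3 of synaptic vesicles, had a log2 fold change of 0.41 (95% interval −0.06 to 0.88).

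Of 12 channels and carriers of lysosomes and endosomes, 0 rose and 0 fell (limma; 0 at an unadjusted p of 0.05, 0 with edgeR, 0 with DESeq2; median 0.04). The most abundant by count, tmem9b, stood at 2291 ± 223 in WT and 2150 ± 197 in samd7-/- (SD, n = 3 each). Of 39 lysosomal membrane proteins and hydrolases, 0 rose and 0 fell with limma or edgeR, 3 were at an unadjusted p of 0.05, against 6.33% of all tested genes, and 1 passed DESeq2. The list's median was −0.07, with 28 members lower and 11 higher. ctsd, which encodes the protease cathepsin D, stood at 14874 ± 3226 in WT and 14933 ± 1876 in samd7-/- (SD, n = 3 each). The gene that DESeq2 called was hexa, a hexosaminidase subunit that breaks down gangliosides, chosen here after its values were seen. The hexa counts of the WT larvae were 1335, 1219 and 1451, and the mutants, at 779, 960 and 772, were all lower. Its log2 fold change was −0.68 (SE 0.14, limma adjusted p = 0.188, DESeq2 adjusted p = 0.00889). A gap of this kind, in either direction, was found for 13.1% of all tested genes. For hexb, also in this list, the mutants (15890, 14520 and 15559) were all above the WT larvae (13319, 13411 and 12836). Its log2 fold change was 0.22 (limma adjusted p = 0.781), and hexb too was named after its values were seen.

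Of 17 genes of the Ragulator, Rag and TFEB pathway, which senses nutrients at the lysosome together with the pump, 0 rose and 0 fell (limma; 0 at an unadjusted p of 0.05, 0 with edgeR, 0 with DESeq2; median −0.05). Its most abundant gene by count, lamtor4, listed as si:dkey-159a18.7, stood at 2382 ± 313 in WT and 2180 ± 164 in samd7-/- (SD, n = 3 each). Of 20 genes of synaptic vesicles, whose filling with transmitter is driven by the pump, 0 rose and 0 fell with limma, edgeR or DESeq2. With limma 3 were at an unadjusted p of 0.05, against 6.33% of all tested genes. In this list 17 genes were higher and 3 lower, with a median log2 fold change of 0.27, against 0.00 for all tested genes. sypb, a synaptophysin gene and the most abundant of them by count, stood at 17925 ± 2032 in WT and 15463 ± 1101 in samd7-/- (SD, n = 3 each, log2 −0.21, 95% interval −0.49 to 0.07). It was among the 3 lower genes. The 3 at an unadjusted p of 0.05 were syn2a (log2 0.38), syt1a (0.31) and slc32a1 (0.27), named after their values were seen. All mutants were above WT for each of them, and 13.1% of all tested genes showed no overlap in either direction. Counts of the whole list summed to between 50965 and 51943 in WT and between 51686 and 55471 in samd7-/-. These sums overlap, and sypb is their largest part.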

How the data were processed

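The deposited values are a normalized signal, in which each library's counts were divided by a size factor of that library; this was read from the values. Every value was a whole multiple, within 0.001, of that of 1 read (100% of values in each library), so reads were recovered for count tests. The tools named in the submitters' processing notes, and so per the labels, were R 4.1.3 with DESeq2 1.34.0, HTSeq 0.9.1, STAR 2.7.2b and Trim Galore 0.6.1, on build danRer10, with no annotation named. For every gene the authors deposited their own log2 fold change and adjusted p-value as well. Libraries came from 10 ng of RNA each, per the labels' protocols, with a kit that keeps no strand. Intervals do not cover amplification, since reads carry no molecular identifiers.

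The main test was limma 3.58.1 (limma-trend, log2(value + 1), no covariate, 2-sided, Benjamini-Hochberg over 11959 genes, threshold 0.05) in R 4.3.3. It was tested on simulated data. Count tests on recovered reads used edgeR 4.0.16 and DESeq2 1.42.0. Exact permutation tests (SciPy 1.17.1) compared sums, ratios and shares. Replicates are separate larvae, and any pair of them differed by more than sampling noise (chi-square per degree of freedom 42.9 to 190). The alternatives were no filter, a minimum of 50, pseudocounts of 0.5 and 10, quantile and TMM scaling, scaling by total reads, the replicate block, each library left out, both count tests and the authors' deposited table.

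All members are named. Of each other list, the genes that passed with the smallest p, or else the one with the highest mean, were named, and other genes were chosen after their values were seen. The members and lists were chosen with earlier results of these data known. The lists also covered lens, muscle, microglia, photoreceptor and blood markers. Symbols of 9 list genes were found through RefSeq synonyms. RefSeq names 27 genes atp6v or atp6ap, and the 6 with no row here (atp6v0a2a, atp6v1ab, atp6v1c2, atp6v1e1a, atp6ap1a and atp6ap1la) are not analysed here.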

Additional observations from a re-analysis of the deposited data

How the results depend on the processing

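The number of V-ATPase genes called, 0 with limma, was 1 with DESeq2, 1 in the authors' deposited table, 1 with quantile normalization, 1 with scaling by total reads and 0 to 1 with a library left out, each time atp6v0b. The number of all genes called, 36, was 92 with DESeq2, 90 in the authors' deposited table and 6 to 27 with a library left out. The cause was not tested. Scaling by total reads moved the median of all tested genes by 0.11 on the log2 scale. There the V1 sum had a log2 ratio of 0.0736 and the accessory sum one of 0.0308, both above 0 where the main values were below it. Relative to the shift they were −0.03 and −0.08. The V0 sum had a log2 ratio of 0.253 with this scaling, or 0.15 relative to the shift, against 0.134 with the main values. Its exact permutation p was 0.1 with this scaling, where the genotypes did not overlap, and 0.2 with the main values, where they did. With a library left out the V1 sum ran from −0.0847 to 0.0148, the share of atp6v0a2b from −0.90 to 0.18 points and that of atp6v0ca from −0.40 to 2.03 points.

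No member that turned its sign passed in any setting, and such values were at most 0.17 from 0 in the settings followed. Scaling by total reads is left out of these signs, since single members other than atp6v0b were not followed there. The median of the members was 0.08 with it, or −0.03 relative to the shift. With quantile normalization atp6ap2 was at 0.0831, atp6v0d1 at 0.00435, atp6v1ba at 0.00491, atp6v1e1b at 0.0450 and atp6v1g1 at 0.0610. atp6v0a1a was at −0.00665 with edgeR, −0.00452 with DESeq2 and −0.00452 in the authors' deposited table. With a library left out, log2 fold changes ran from −0.18 to 0.16 for atp6ap1b, −0.0879 to 0.0586 for atp6ap2, −0.12 to 0.0825 for atp6v0a1a, −0.0252 to 0.523 for atp6v0a1b, −0.29 to 0.14 for atp6v0a2b and −0.00241 to 0.191 for atp6v0cb. They ran from −0.106 to 0.0232 for atp6v1c1b, −0.0819 to 0.0514 for atp6v1d, −0.139 to 0.0647 for atp6v1e1b, −0.18 to 0.13 for atp6v1f, −0.12 to 0.17 for atp6v1g1 and −0.00830 to 0.125 for atp6v1h.

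Deviations of same-numbered larvae correlated at 0.03, 0.18 and −0.00, and those of differently numbered larvae at −0.16 to 0.14. With 3 larvae per genotype these values cannot decide whether equal replicate numbers mark a pair. With the replicate block 33 genes and 0 members were called, and in sign-flip tests within numbers the V1 to V0 ratio had an exact p of 0.25, the smallest 3 pairs can give. Sums per coding length were not run, for want of lengths. With 3 larvae per genotype, exact tests cannot go below 0.1, or 0.2 with a library left out.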
